A study of Mus musculus with 12 samples.

Results

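The Mir15 and Mir16 family with its relatives Mir195, Mir322, Mir497 and Mir503 is a set of 8 mouse miRNA genes, Mir15a, Mir16-1, Mir15b, Mir16-2, Mir497, Mir195, Mir322 and Mir503. They were chosen by gene symbol and not by any measured value, though with earlier results of these data known. These genes were 8 of 1577 miRNA genes and of 32101 features in the table. Symbols located 6 of them, and Mir15a and Mir16-1 were located by position, since the annotation behind the table gives these hairpins only the clone names AC154660.2 and AC154660.1. Small RNA-seq of 20 to 24 nt RNAs was made from mouse embryonic stem cells (ESCs), pluripotent cells of the early embryo, in 12 libraries that carry E14 as their background strain.

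The WT group had 6 libraries, numbered 1, 2 and 3 with a library A and B of each number. What the numbers stand for is not said in the labels. The pair 2A and 2B (E14 2) is wild type by its genotype label alone, with no WT in its title. The Dnmt1 KO group, which lacks the enzyme that restores DNA methylation on new strands, had 2 libraries, A and B. The Dicer/Dnmt1 KO group, which also lacks the nuclease that cuts miRNA hairpins, had 4 libraries, numbered 1 and 2 with A and B of each. No time after deletion is given in the labels. The study's methods describe a conditional Dnmt1 line of C57BL/6 origin in which Cre is induced by tamoxifen, with Dicer targeted by CRISPR/Cas9 in that line and colonies grown from single cells. Both knockout groups therefore share the Dnmt1 deletion. For small RNA-seq of both knockouts, the paper gives the WT used for normalizing as uninduced cells conditional for Dicer and Dnmt1. Nothing in the labels ties the 6 WT libraries here to those cells, and E14 is given as their background strain. A difference of line and a difference of genotype therefore cannot be told apart in comparisons with WT. Nor can the single-cell colony and the time after deletion be told apart from the loss of Dicer in Dicer/Dnmt1 KO against Dnmt1 KO. Nothing says that A and B came from separate cultures, and p-values then measure only the spread between these libraries, which may be technical.

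A miRNA is cut from a hairpin in the nucleus by Drosha and Dgcr8, then by Dicer in the cytoplasm, and 1 arm of the duplex enters an Argonaute protein. Bases 2 to 8 of that arm, the seed, pair with target mRNAs. The family is known for holding cells in G1 by repressing cyclins D and E, Cdk6, Cdc25a and Wee1, and Mir15a and Mir16-1 are also known for repressing Bcl2. ESCs have a short G1 and express the Mir290 and Mir302 clusters, which promote the passage from G1 to S.

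The mature 5p arms are shown with the seed in capitals, since the seed is what defines the family (RefSeq, miRNAs matched for 8 of 8 members).

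miR-15a-5p: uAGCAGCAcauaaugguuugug
miR-15b-5p: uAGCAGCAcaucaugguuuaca
miR-16-5p: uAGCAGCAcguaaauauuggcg
miR-195a-5p: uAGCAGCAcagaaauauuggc
miR-497a-5p: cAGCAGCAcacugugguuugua
miR-322-5p: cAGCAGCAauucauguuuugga
miR-503-5p: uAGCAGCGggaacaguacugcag

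The seed AGCAGCA was shared by all of these except miR-503-5p, whose seed AGCAGCG ends in another base and occurred in 1 of 1679 mouse mature sequences. AGCAGCA occurred in 10 of the 1679 (0.596%). Beyond the seed the arms differed. Counting from the 5′ end, miR-16-5p and miR-195a-5p were identical at 19 of 21 positions and miR-15a-5p and miR-15b-5p at 18 of 22, while miR-497a-5p and miR-503-5p shared 10 of 22.

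Mir16-1 and Mir16-2 give the same 5p arm, and miR-16-5p was the only arm of the family with 2 exact matches in the genome. Their 3p arms, shown here because they alone tell these genes apart, each had 1 match.

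miR-16-1-3p: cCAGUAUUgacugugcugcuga
miR-16-2-3p: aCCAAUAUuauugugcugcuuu

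The genes lie in 4 clusters (NCBIM37). Mir16-1 (chr14:62250717-62250809) and Mir15a (chr14:62250864-62250947) are 54 bases apart on the minus strand inside Dleu2, a long non-coding RNA. Mir15b (chr3:68813678-68813775) and Mir16-2 (chr3:68813824-68813918) are 48 bases apart on the plus strand inside Smc4, which encodes a condensin subunit. Mir497 (chr11:70048219-70048302) and Mir195 (chr11:70048544-70048637) are 241 bases apart on the plus strand. Mir503 (chrX:50407161-50407231) and Mir322 (chrX:50407432-50407526) are 200 bases apart on the minus strand, with Mir351 as the next miRNA 630 bases from Mir503.

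Depth set what could be seen. Library reads ran from 16142 (WT 2A) to 245184 in WT, were 67678 and 107607 with Dnmt1 lost, and ran from 8710 (1B) to 150701 with both genes lost, so that 1 read was worth 62 RPM (reads per 1000000 library reads) in WT 2A and 115 RPM in Dicer/Dnmt1 KO 1B. miRNAs took 29.5% to 65.8% of the counts in WT and 51.4% and 53.4% in Dnmt1 KO, against 6.55% to 12.7% in the 4 Dicer/Dnmt1 KO libraries. Fragments of the targeted mRNAs were few (Dicer1, 7, 1 and 1 reads in WT, Dnmt1 KO and Dicer/Dnmt1 KO, and Dnmt1, 62, 17 and 14) and do not check the deletions. Of 12 ESC marker miRNAs, 12 had reads in WT and 10 in each knockout group (Mir302c and Mir367 were at 0), summing to between 28683 and 93275 RPM in WT, to 55926 and 99648 RPM in Dnmt1 KO, and only to between 1221 and 3797 RPM without Dicer. Of 10 mesenchymal markers (feeder cells are fibroblasts, and cells were grown with or without them), 7, 6 and 7 had reads, with sums of 7937 to 13181 RPM in WT, 29153 and 35481 RPM in Dnmt1 KO, then 10000 to 31090 RPM without Dicer. Mir199a-1 was at 0 in all groups. Blood markers summed to 726 to 867 RPM, 576 and 790 RPM, then 0 to 126 RPM. Other markers could be looked up only in part, with 0 reads for 3 of 9 neural and 1 of 2 liver markers in the table and 1 read for 4 of 6 muscle markers. The part of other cells in the results was not tested.

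In WT ESCs few reads of the family were counted. Its 8 members held 358 of 762641 library reads, and per base of hairpin they ranked 87 (Mir16-1), 94 (Mir15a), 97 (Mir15b), 112 (Mir497), 113 (Mir195), 161 (Mir322) and 179 (Mir16-2) among the 308 miRNAs with a read in WT. The arm miR-16-5p has 2 exact places in the genome. Whether its reads were undercounted was not tested, which limits the family sum and the ranks of Mir16-1 and Mir16-2. Mir503 had no read in 6 of 6 WT libraries, which allows up to 3 reads, or 3.93 RPM over the group. The ESC miRNAs Mir291a, Mir291b, Mir294, Mir295 and Mir302a to Mir302d held 28877 reads together.

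**Figure D1:**
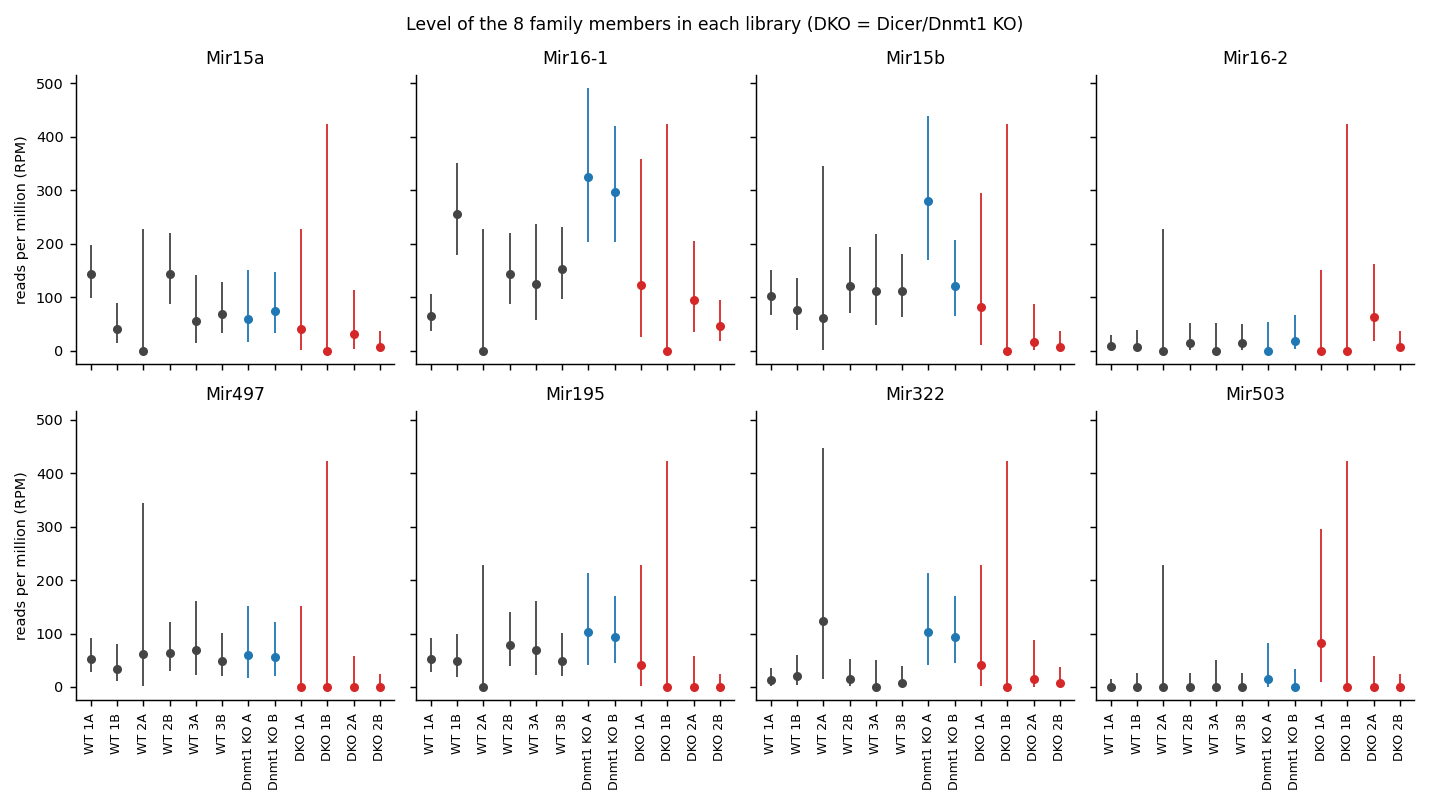
RPM (y axis, linear) of each member in each of the 12 libraries (x axis), with exact 95% Poisson intervals that cover counting error only; DKO is Dicer/Dnmt1 KO. The widest intervals belong to WT 2A and DKO 1B, the libraries with 16142 and 8710 reads, and Mir497 is at 0 in 4 of 4 DKO libraries.

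Mir15b was read in 6 of 6 WT libraries. Its reads were 25, 11, 1, 17, 8 and 16 in WT 1A to 3B, or 62 RPM at the lowest, 106 RPM at the median and 121 RPM at the highest. Dnmt1 KO had 19 and 13 reads (281 and 121 RPM). Dicer/Dnmt1 KO had 2, 0, 1 and 1 reads (81.7, 0, 15.8 and 6.64 RPM). The highest Dicer/Dnmt1 KO value, from 2 reads of a shallow library, lay within the WT range, while the deepest library was lowest but for the one without a read.

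Mir497 was read in every WT library, with 13, 5, 1, 9, 5 and 7 reads (34.5 RPM at the lowest, 57.5 RPM at the median, 69.3 RPM at the highest). Dnmt1 KO had 4 and 6 reads (59.1 and 55.8 RPM), inside the WT range, and Dicer/Dnmt1 KO had 0 reads in 4 of 4 libraries. Its neighbour Mir195 had 13, 7, 0, 11, 5 and 7 reads in WT (0, 50.8 and 78.5 RPM at the lowest, median and highest), 7 and 10 with Dnmt1 lost (103 and 92.9 RPM), and 1 in Dicer/Dnmt1 KO 1A (40.8 RPM) with 0 in the other libraries. Both Dnmt1 KO values of Mir195 lay above all 6 of WT.

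The chromosome 14 pair held more reads than any other pair of the family in WT. Mir16-1 had 16, 37, 0, 20, 9 and 22 reads in WT (0, 134 and 255 RPM at the lowest, median and highest), 22 and 32 with Dnmt1 lost (325 and 297 RPM), and 3, 0, 6 and 7 with both lost (122, 0, 94.6 and 46.5 RPM). Mir15a had 35, 6, 0, 20, 4 and 10 reads in WT (0, 62.5 and 143 RPM), 4 and 8 with Dnmt1 lost (59.1 and 74.3 RPM), and 1, 0, 2 and 1 with both lost (40.8, 0, 31.5 and 6.64 RPM). For Mir16-1 both Dnmt1 KO libraries stood above all of WT, and for Mir15a they stood inside the WT range. WT 2A, with no read at either hairpin, set the low end of both.

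Mir322 was rare in WT and less so in Dnmt1 KO. WT had 3, 3, 2, 2, 0 and 1 reads, or 0 RPM at the lowest, 13.3 RPM at the median and 124 RPM at the highest, the last being 2 reads of the shallow WT 2A. Dnmt1 KO had 7 and 10 reads (103 and 92.9 RPM), above the other 5 WT libraries, and Dicer/Dnmt1 KO had 1, 0, 1 and 1 (40.8, 0, 15.8 and 6.64 RPM). Mir503, cut from the same X-linked transcript, had 3 reads in all, 1 in Dnmt1 KO A and 2 in Dicer/Dnmt1 KO 1A. Mir16-2 had 14, with 2, 1, 0, 2, 0 and 2 in WT, 0 and 2 with Dnmt1 lost, and 0, 0, 4 and 1 with both lost.

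With the libraries of a group summed, which ignores the spread between them, the rates ordered as Dnmt1 KO above WT above Dicer/Dnmt1 KO for Mir16-1 (308, 136 and 64.7 RPM), Mir15b (183, 102 and 16.2 RPM), Mir195 (97.0, 56.4 and 4.04 RPM), Mir497 (57.1, 52.4 and 0 RPM) and Mir322 (97.0, 14.4 and 12.1 RPM). Mir15a was at 68.5 RPM in Dnmt1 KO and 98.3 RPM in WT. The exact 95% Poisson intervals of WT and Dnmt1 KO overlapped for Mir15a, Mir15b, Mir497 and Mir195, and those of WT and Dicer/Dnmt1 KO for Mir322.

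**Figure D2:**
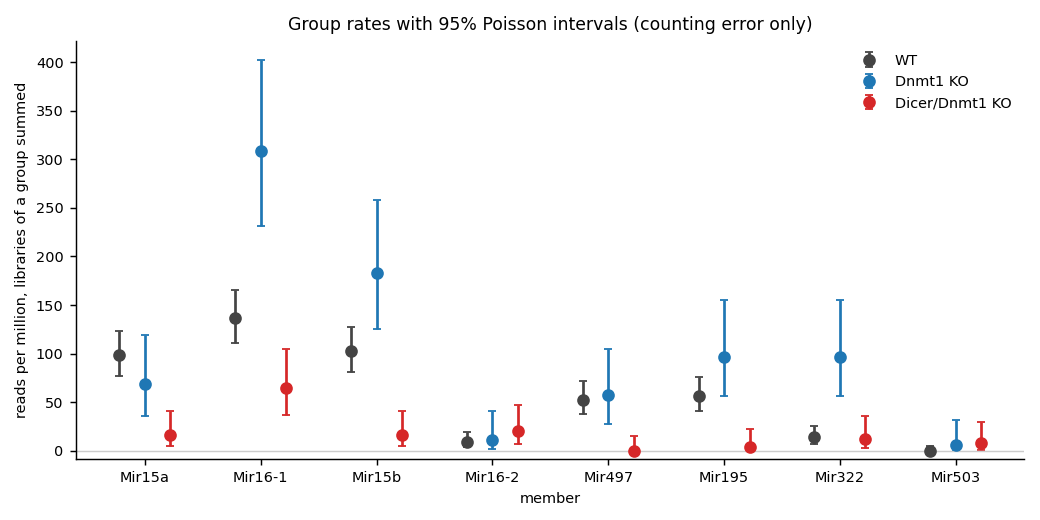
Rate of each member (x axis) in RPM with the libraries of a group summed (y axis, linear), with exact 95% Poisson intervals for counting error only. Mir16-1 and Mir322 are the members whose Dnmt1 KO interval lies clear above that of WT (231 to 402 against 111 to 165 RPM, and 56.5 to 155 against 7.20 to 25.8 RPM).

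The comparison of Dicer/Dnmt1 KO with WT asks what remains of the family without Dicer. The tests are limma fits on log2(RPM + 10) with Benjamini-Hochberg adjustment over all features tested, and fold changes on that scale understate those of low genes. Mir15b, Mir15a and Mir16-1 reached the minimum for testing (10 reads at median depth, 111 RPM, in 2 libraries), Mir15b and Mir15a by 3 and 2 libraries of WT or Dnmt1 KO and none of Dicer/Dnmt1 KO, so the number that passed is no result. Mir15b was lower (log2 fold change -2.56, SE 0.53, adjusted p = 0.00209, limma, lower in 3 of 4 libraries than every WT library). Mir15a was at -1.68 (SE 0.76, adjusted p = 0.139, limma) and Mir16-1 at -1.18 (SE 0.88, adjusted p = 0.417, limma). The 1 of 3 called stands beside 19% of 683 features and 60.9% of 133 miRNAs called lower, with a median of -2.75 for miRNAs and -0.09 for all features.

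Every feature with at least 15 reads was tested in a further fit, added after the data were seen, which reached 6 members and left out Mir16-2 and Mir503 (14 and 3 reads). In it Mir497 (-2.81, SE 0.61, adjusted p = 0.000996, limma) and Mir15b (-2.38, SE 0.65, adjusted p = 0.0132, limma) were lower, and Mir195 (-2.02, SE 0.69, adjusted p = 0.0726, limma) and Mir322 (-0.55, SE 0.67, adjusted p = 0.742, limma) did not pass, against 5.68% of 2360 features and 41.5% of 207 miRNAs called lower. Mir497 passed in 24 of 24 alternatives of this fit and Mir15b in 19 of 24, where its adjusted p reached 0.188. Mir497 and Mir15b reached 15 reads through WT (40 and 78 reads), with 0 and 4 in Dicer/Dnmt1 KO. These alternatives keep that minimum, so the tallies add no support. Without a filter Mir497 passed (-2.94, adjusted p = 0.00532, limma) and Mir15b did not (-2.56, adjusted p = 0.188, limma). Without WT 2A, the library of 16142 reads, Mir15a (-2.28, adjusted p = 0.00649, limma) and Mir16-1 (-1.88, adjusted p = 0.0366, limma) also passed in the first fit. WT 2A had 0 reads of both, so leaving it out removes the lowest WT value of each, and these calls add no support.

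In read terms, Mir497 had 0 reads where the WT rate would give 13.0, so it was at least 4.32-fold lower (limit of 3 reads over the group). Mir15b had 4 where 25.3 would be due, a rate 6.32-fold lower with an exact 95% interval of 2.37 to 23.8 for counting error. Mir15a had 4 where 24.3 would be due (6.08-fold lower, 2.28 to 22.9), Mir195 1 where 13.9 would be (13.9-fold lower, 2.37 to 563), and Mir16-1 16 where 33.7 would be (2.11-fold lower, 1.24 to 3.82). Mir322 had 3 where 3.57 would be due, and Mir16-2 5 where 2.27 would be, 4 of them from 1 library (2A), and their intervals span no change. Mir497 was the 1 member whose libraries did not overlap between these groups, a pattern seen in 4.32% of 2360 features and 32.4% of 207 miRNAs (lower).

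The comparison of Dnmt1 KO with WT asks whether loss of maintenance methylation moves the family while Dicer is present. No member passed in the first limma fit (6.88% of 683 features and 21.8% of 133 miRNAs called in either direction) or in the fit of features with 15 reads (1.57% of 2360 and 14.5% of 207). The log2 fold changes were 2.14 (SE 1.11, adjusted p = 0.328, limma) for Mir16-1, 1.06 (SE 0.67, adjusted p = 0.437, limma) for Mir15b and 0.60 (SE 0.96, adjusted p = 0.795, limma) for Mir15a, with a median of 1.40 over miRNAs. At unadjusted p under 0.05 the counts were 0 of 3 in the first fit and 2 of 6 (Mir322 and Mir16-1) in the second, where the same cut took in 18.3% of 683 features and 42.1% of 133 miRNAs, and 11.2% of 2360 features and 46.4% of 207 miRNAs. With voom weights Mir16-1 passed (1.59, adjusted p = 0.0441, limma).

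Mir322 was at 2.33 in that second fit (SE 0.85, adjusted p = 0.253, limma). It reached the minimum of 15 reads only through the 17 reads of Dnmt1 KO, the group where it was high, so this value supports nothing by itself, and without a filter it was at 2.16 (adjusted p = 0.513, limma). It passed in 4 of 24 alternatives, without WT 2A (2.76, adjusted p = 0.0271, limma), without both E14 2 libraries (2.93, adjusted p = 0.0226, limma), with voom weights (2.87, adjusted p = 0.0335, limma) and with a pseudocount of 50 RPM (1.32, adjusted p = 0.0372, limma). These alternatives keep the minimum of 15 reads and add no support. Leaving out WT 2A also removes the highest WT value of Mir322 (124 RPM). Dnmt1 KO had 17 reads where the WT rate would give 2.53, a 6.72-fold difference (exact 95% interval 2.97 to 15.9, counting error only). Mir16-1 had 54 where 23.9 would be due (2.26-fold, 1.60 to 3.17) and Mir15b 32 where 17.9 would be (1.79-fold, 1.14 to 2.73). For Mir195 (1.72-fold, 0.92 to 3.08), Mir497 (1.09-fold, 0.49 to 2.21) and Mir15a (0.70-fold, 0.34 to 1.29) the interval spans no change. Libraries did not overlap for 2 of 8 members, Mir16-1 and Mir195, both higher, as for 7.8% of 2360 features and 44% of 207 miRNAs. Of 4 mesenchymal markers tested in the first fit, 2 were higher in the same libraries, Mir143 (3.63, adjusted p = 0.00506, limma) and Mir21 (1.73, adjusted p = 0.0216, limma). Mir10b and Mir27b were not called, and 6.59% of 683 features and 21.1% of 133 miRNAs were called higher. In the fit of features with 15 reads, 1 of 6 was called. The part of these markers in the values of Mir322 and Mir16-1 was not tested.

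**Figure D3:**
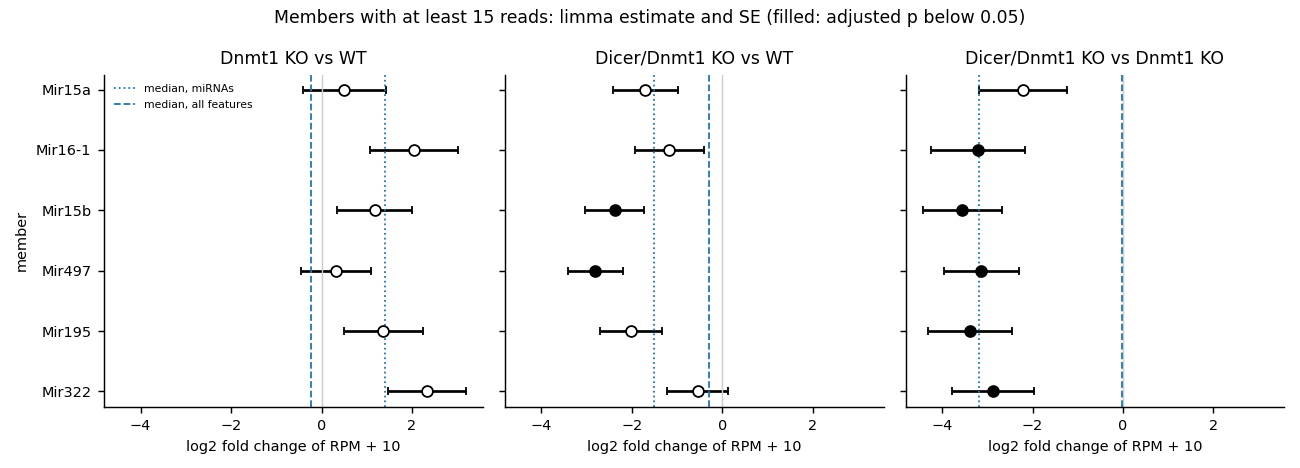
log2 fold change of RPM + 10 (x axis) with its SE for the 6 members with at least 15 reads (y axis) in 3 comparisons; filled points passed an adjusted p of 0.05, and vertical lines mark the medians of all features (dashed) and of miRNAs (dotted). No point is filled for Dnmt1 KO against WT, 2 are for Dicer/Dnmt1 KO against WT and 5 for Dicer/Dnmt1 KO against Dnmt1 KO.

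Dicer/Dnmt1 KO against Dnmt1 KO compares groups that both lack Dnmt1 and shares libraries with the comparisons above. Mir15b was lower (-3.62, SE 0.71, adjusted p = 0.00131, limma), Mir16-1 was at -3.33 (SE 1.18, adjusted p = 0.0611, limma) and Mir15a at -2.28 (SE 1.02, adjusted p = 0.163, limma). The 1 of 3 called stands beside 21.7% of 683 features and 74.4% of 133 miRNAs called lower, with a median of -4.17 over miRNAs. In the fit of features with 15 reads, 5 of 6 members were lower, Mir15b (-3.55), Mir195 (-3.39), Mir16-1 (-3.21), Mir497 (-3.13) and Mir322 (-2.88), with adjusted p from 0.00446 to 0.0455 (limma), against 7.58% of 2360 features and 61.8% of 207 miRNAs. The call held in 23 of 24 alternatives for Mir15b, 22 for Mir497, 19 for Mir195, 13 for Mir322 and 12 for Mir16-1, and Mir322 was again tested only through its Dnmt1 KO reads. These alternatives keep the minimum of 15 reads, so the tallies add no support. Mir15a was at -2.21 (adjusted p = 0.255, limma).

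Mir15b kept its call in the first fit without Dnmt1 KO A or B (adjusted p = 0.0447 and 0.00822, limma), while in the second fit 5 of 5 calls were lost without A and 4 of 5 without B, where Mir15b stayed (adjusted p = 0.0285, limma). Without Dnmt1 KO A the adjusted p of Mir15b in the fit of features with 15 reads was 0.159, that of Mir497 0.0926, of Mir195 0.109, of Mir322 0.214 and of Mir16-1 0.243 (limma). In reads, Mir15b had 4 where the Dnmt1 KO rate would give 45.2 (11.3-fold lower, 4.003 to 43.9), Mir195 1 where 23.99 would be due (23.99-fold, 3.76 to 1003), Mir322 3 where 23.99 would be (7.996-fold, 2.31 to 42.6), and Mir16-1 16 where 76.2 would be (4.76-fold, 2.69 to 8.91). Mir497 was at least 4.70-fold lower. Libraries did not overlap for 6 of 8 members, all lower, as for 9.96% of 2360 features and 68.6% of 207 miRNAs.

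The members summed to 248 RPM at the lowest, 444 RPM at the median and 578 RPM at the highest in WT, to 946 and 753 RPM in Dnmt1 KO, and to 408, 0, 221 and 73.0 RPM in Dicer/Dnmt1 KO. Both Dnmt1 KO values stood above all 6 of WT, and 1 of the 4 Dicer/Dnmt1 KO values stood inside the WT range. Over the Dicer/Dnmt1 KO group 35 family reads were counted where the WT rate would give 116. As a share of miRNA reads, it was 0.112% ± 0.0393 (SD, n = 6) in WT, 0.132% ± 0.0173 (SD, n = 2) in Dnmt1 KO and 0.164% ± 0.146 (SD, n = 4) in Dicer/Dnmt1 KO. The 4 Dicer/Dnmt1 KO shares were 0.340% (Wilson 95% interval 0.185 to 0.625%), 0% (up to 0.656%), 0.215% (0.128 to 0.361%) and 0.102% (0.0572 to 0.183%), on both sides of the WT values. Without library 1A, which held 10 of the 35 reads, the mean share in Dicer/Dnmt1 KO was 0.106%, below that of WT, so no order of the groups can be read from these shares.

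**Figure D4:**
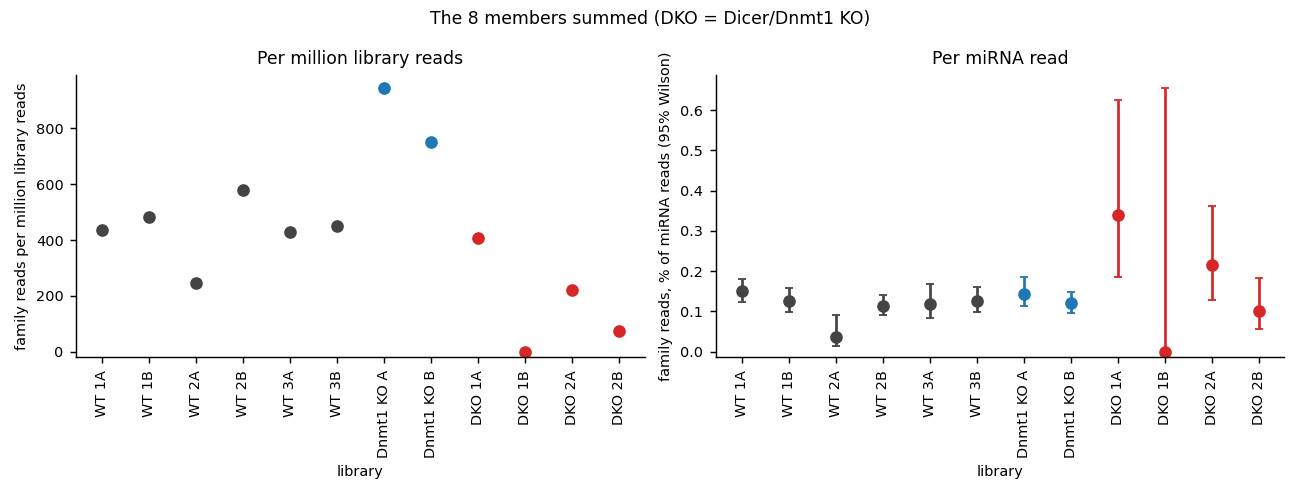
The 8 members summed in each library, in RPM (left) and as a percentage of miRNA reads with 95% Wilson intervals (right); DKO is Dicer/Dnmt1 KO. In RPM the Dnmt1 KO libraries are highest (946 and 753) and DKO 1B has no read, while per miRNA read the DKO libraries lie on both sides of WT.

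With libraries summed, Mir16-1 was 29.1% of family reads in WT (104 of 358, Wilson 95% interval 24.6 to 34.0%), 37.2% in Dnmt1 KO (29.8 to 45.3%) and 45.7% in Dicer/Dnmt1 KO (16 of 35, 30.5 to 61.8%). Single libraries differed, since WT 1A, the deepest, had 16 reads of Mir16-1 against 35 of Mir15a and 25 of Mir15b, and WT 2B had 20 of both Mir16-1 and Mir15a. Mir15a was 20.9% in WT (17.1 to 25.5%) and 8.28% in Dnmt1 KO (4.80 to 13.9%). Mir322 was 3.07% in WT (1.72 to 5.42%) and 11.7% in Dnmt1 KO (7.45 to 18.0%).

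Neighbours cut from the same transcript showed both an even and an uneven pair in the reads counted. Shares of the pairs with Mir16-1 or Mir16-2 also depend on where reads of miR-16-5p were placed, which is not given. Mir195 held 50.0% to 58.3% of the Mir195 and Mir497 reads in 5 WT libraries and 63.6% and 62.5% in Dnmt1 KO (52.7% ± 3.84 against 63.1% ± 0.804, SD, two-sided exact permutation p = 0.0952, the smallest this design allows, adjusted p = 0.476 over 5 tests). Mir15a held 68.6% of the Mir15a and Mir16-1 reads in WT 1A (35 of 51, Wilson 95% interval 55.0 to 79.7%). In WT 1B it held 6 of 43 reads (6.56 to 27.3%). These libraries share a number, and their intervals do not overlap. WT 2B was at 50.0%, 3A at 30.8% and 3B at 31.2%, Dnmt1 KO A at 15.4% and B at 8 of 40 reads, and Dicer/Dnmt1 KO 2A and 2B at 25.0% and 12.5%. Dnmt1 KO (17.7% ± 3.26, n = 2) and WT (38.9% ± 20.9, n = 5) differed by less than the WT libraries did among themselves (two-sided exact permutation p = 0.286, adjusted p = 0.476). Mir15b took 92.5% ± 4.45 (SD, n = 5) of the reads of its pair with Mir16-2 in WT, and 19 of 19 and 13 of 15 reads in Dnmt1 KO (two-sided exact permutation p = 1, adjusted p = 1), and 1 of 5 in Dicer/Dnmt1 KO 2A.

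**Figure D5:**
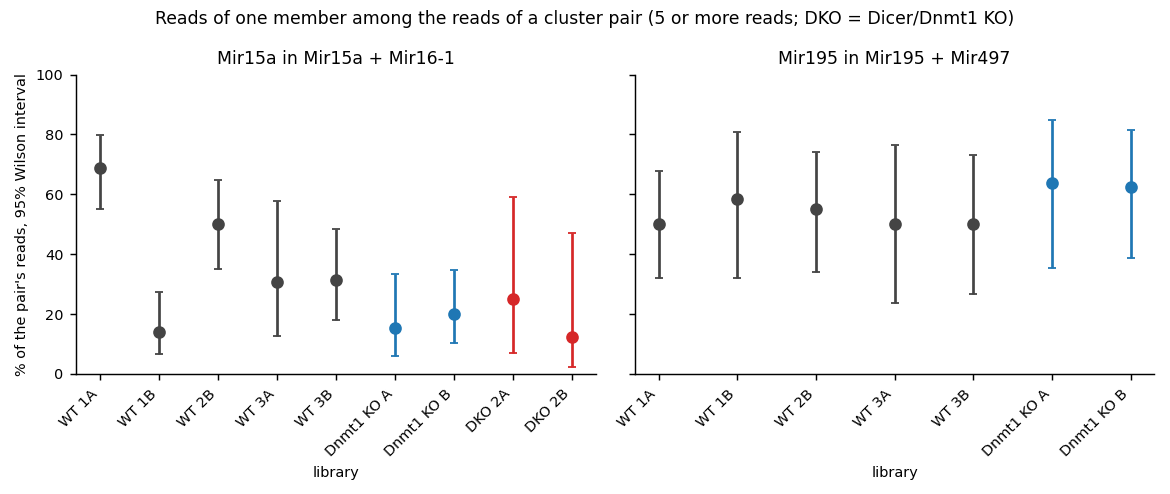
Share of the reads of a cluster pair (y axis, percent) that fell on Mir15a (left) or Mir195 (right) in each library with 5 or more reads of the pair (x axis), with 95% Wilson intervals. Mir15a runs from 6 of 43 reads to 35 of 51 among WT libraries, and Mir195 from 50.0% to 58.3%.

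Mir16-1 and Mir16-2 share the arm miR-16-5p, whose reads fit both places, and how such reads were placed is not given in the sources used here. The table holds 174 reads at Mir16-1 and 14 at Mir16-2. Other miRNAs whose main arm has 2 exact places ranged from none or few reads in WT (Mir103-1 0 and Mir103-2 5, Mir26a-1 1 and Mir26a-2 2, Mir24-2 19) to 70113 and 28404 (Mir92-1 and Mir92-2). Whether miR-16-5p is undercounted at either gene was not tested, and which gene its reads came from cannot be told apart.

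Over all libraries, reads inside a host gene were mostly those of the hairpins. Of 269 reads in Dleu2, 265 lay in Mir15a or Mir16-1 (98.5%), and of 147 in Smc4, 128 lay in Mir15b or Mir16-2 (87.1%), so that the host rows largely measure the miRNAs again. Smc4 in Dicer/Dnmt1 KO was an exception, with 10 of its 19 reads in that group outside both hairpins. Mir351, of the X-linked cluster but with another seed, had 11, 15, 1, 23, 9 and 12 reads in WT, 11 and 49 with Dnmt1 lost, and 0, 0, 3 and 3 with both lost. It was lower in Dicer/Dnmt1 KO than in WT (-2.66, SE 0.58, adjusted p = 0.00315, limma) and than in Dnmt1 KO (-4.33, adjusted p = 0.000677, limma), and at 1.68 in Dnmt1 KO against WT (SE 0.73, adjusted p = 0.248, limma). Like Mir322, its summed rate in Dnmt1 KO was above that of WT (342 and 93.1 RPM, 3.68-fold, 2.56 to 5.26), though Dnmt1 KO A, at 163 RPM, was within the WT range. Mir542 had 16, 5 and 1 reads and Mir450b 15, 7 and 0 in WT, Dnmt1 KO and Dicer/Dnmt1 KO, and neither passed in the fit of features with 15 reads.

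Other miRNAs of the cell cycle moved in both directions. Among 18 other regulators of G1, 6 were tested in the first fit. In Dicer/Dnmt1 KO against WT 2 were higher (Mirlet7i, 3.61, and Mir221, 1.61), 2 were lower (Mir26b, -2.75, and Mir34c, -1.77) and 2 did not pass, with a median of 0.01. Of all features and of miRNAs, 5.12% and 12% were called higher and 19% and 60.9% lower. In Dnmt1 KO against WT 2 were higher (Mirlet7i, 3.67, and Mir26b, 2.53) and none lower, with a median of 2.11, where 6.59% of all features and 21.1% of miRNAs were called higher. Of 8 ESC miRNAs that promote entry into S, 7 were tested. In Dicer/Dnmt1 KO 7 of 7 were lower relative to WT (median -5.38), beside the same 19% and 60.9%, and in Dnmt1 KO none passed (limma, median -0.92, 2 of 7 at an unadjusted p under 0.05). The median of the 3 family members tested was -1.68 and 1.06 in the same comparisons.

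Among 18 known targets of the family, fragments of 20 to 24 nt summed to 129, 9 and 57 reads in WT, Dnmt1 KO and Dicer/Dnmt1 KO, with at most 10 reads of a gene in a library. E2f3, a transcription factor of S phase entry, had 21, 2 and 9 reads, and the cyclin gene Ccne1 12, 1 and 4. None reached the minimum of the first fit. Ccne1, Cdk4, E2f3 and Mcl1 had at least 15 reads, and none of the 4 passed in a comparison of the second fit (limma, with 1 of the 12 tests, Mcl1 in Dnmt1 KO against WT, at an unadjusted p under 0.05). Such fragments are no measure of mRNA level.

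Over the 12 libraries, the miRNAs outside the family and its clusters whose log2(RPM + 10) followed Mir15b most closely were Mir296 (Pearson r = 0.96), Mir142 (0.95) and Mir148b (0.95), of 129 compared. For Mir16-1 they were Mir34a (0.95), Mir101b (0.87) and Mir467e (0.82), and for Mir15a Mir101b (0.92), Mir106a (0.86) and Mir34a (0.86). The points share library depth and scaling and fall into 3 genotypes, and the values are a description.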

How the data were processed

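The authors trimmed reads (Trim Galore 0.3.5), aligned those of 20 to 24 nt to NCBIM37 using Bowtie2 2.2.6 and counted overlaps with annotated features in SeqMonk, per the labels and methods. The deposited values are log2 RPM with 0 reads written as 0.9 read, though the table is named as counts. Whole reads (tolerance 0.01) came back for 100% of values in 11 columns and 99.997% in WT 2B. Another 89 value columns belong to no sample here and were not used. Strand was not used in counting. Positions and gene types come from GENCODE vM1, sequences from RefSeq (GRCm38.p6 table) matched exactly to NCBIM37.

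Reads were scaled by trimmed means (TMM, trims of 30% and 5%) and tested as log2(RPM + 10) with limma 3.58.1 (R 4.3.3), mean-variance trend, 1 fit over 3 groups, on 683 features with at least 111 RPM in 2 libraries and 15 reads in all. Of tests on counts, voom on the recovered reads was the alternative run. The script was tested on simulated data. Shares were compared by exact permutation tests (scipy). Alternatives were other scalings, pseudocounts, filters, voom, summed pairs, a replicate block and left-out libraries. The members and lists were chosen with earlier results of these data known, and named genes are the 8 members, their cluster neighbours and hosts, the known targets and 3 miRNAs most like each tested member. Shallow libraries limit precision, and the intervals and floors reflect counting error alone, as PCR copies could not be told from separate molecules.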

Additional observations from a re-analysis of the deposited data

Results flagged for a closer look

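A library far from the rest of its group was found in 5 of 19 group values tested by Dixon's criterion, and each rests on few reads. Chance meets the criterion in about 1 in 20 groups of continuous values, a rate that does not hold for sparse counts at unequal depth, and where 1 library has a read and the rest are at 0 the criterion is met by construction (Mir195 and Mir503). In WT 2A, the shallowest WT library, Mir322 was at 124 RPM from 2 reads, against 20.7 RPM in the next highest WT library, and the family held 0.0357% of miRNA reads, from 4 reads, against 0.114% in the next lowest. In Dicer/Dnmt1 KO 1A, Mir195 was at 40.8 RPM from 1 read and Mir503 at 81.7 RPM from 2 reads, and the other libraries of that group had 0. In Dicer/Dnmt1 KO 2A, Mir16-2 was at 63.1 RPM from 4 reads, against 6.64 RPM in the next highest.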

How the results depend on the processing

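Depth was the main limit, since most members had under 10 reads in most libraries, and WT 2A and Dicer/Dnmt1 KO 1B could not show a member at its WT level with more than a read or a few. Mir15b kept its direction in 26 of 26 alternatives and its call in 25 of 26 in both comparisons with Dicer/Dnmt1 KO (not without a filter, adjusted p = 0.188 and 0.132, limma, where 14232 features are tested). The other alternatives keep a minimum that Mir15b reached through libraries of WT and Dnmt1 KO, so this tally adds no support. Without a filter Mir497 was called in Dicer/Dnmt1 KO against WT and no member in Dicer/Dnmt1 KO against Dnmt1 KO, 0 by that fit. Members called in Dicer/Dnmt1 KO against WT were 1, and 2 with voom or the minimum of 15 reads and 1 to 3 with a library left out. In Dnmt1 KO against WT they were 0, and 1 with voom. In Dicer/Dnmt1 KO against Dnmt1 KO they were 1, 2 with scaling on snoRNAs and snRNAs, a pseudocount of 50 RPM, voom, summed pairs or no E14 2, 3 with those groups alone, 5 with the minimum of 15 reads and 1 to 3 with a library left out (3 without WT 2A). Over the same 26 alternatives, features called ran from 129 to 200 in Dicer/Dnmt1 KO against WT. They ran from 113 to 221 in Dicer/Dnmt1 KO against Dnmt1 KO. In the first fit 19% and 21.7% of 683 features were called lower in these comparisons, so the member counts alone are no result about the family. Features called in Dnmt1 KO against WT were 47. They were 31 with a pseudocount of 1 RPM, 80 with voom, 12 with summed pairs and 30 with a correlation within A and B pairs. They were 181 without E14 2 and 15 to 97 with a library left out. Same-numbered WT and Dicer/Dnmt1 KO libraries did not deviate together (correlations -0.23, 0.11, -0.17 and -0.29). The replicate block was number and letter in Dicer/Dnmt1 KO against WT, and the letter A or B alone in the other comparisons. With it Mir15b was at -2.65 (adjusted p = 0.0476, limma) in Dicer/Dnmt1 KO against WT. Each group has as many A as B libraries, so the letter could not move the estimates of 1.06 and -3.62 in the other comparisons. The block changed no call of a member in the first fit. In the fit of 15 reads, Mir15b lost its call against WT (adjusted p = 0.188, limma) and Mir16-1 against Dnmt1 KO (adjusted p = 0.0513, limma). Library reads without scaling moved the median of all features by 0.70, -0.20 and 0.91, and scaling on snoRNAs and snRNAs by -0.10, 0.36 and -0.44. Family reads as a share of library reads were 0.0438% in WT, 0.0849% in Dnmt1 KO and 0.0176% in Dicer/Dnmt1 KO. Pair shares with A and B summed, or without Dicer/Dnmt1 KO 2A or 2B, left too few libraries for tests that hold those groups. The cause of these changes was not tested.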
